A study of Mus musculus with 12 samples.

Results

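Genes that mark the macrophages of the brain's borders were followed in the visual thalamus of newborn mice lacking *Sox2* or *Nr2f1*. The 8 genes were *Mrc1*, *Stab1*, *Lyve1*, *Cd163*, *Pf4*, *F13a1*, *Ms4a7* and *Cbr2*. They were chosen by symbol from general knowledge of these cells, with earlier results of these data known. All 8 were among the 24480 genes of the deposited tables. RNA-seq covered 12 libraries of the dorsolateral geniculate nucleus (dLGN), the thalamic relay for vision, each a pool of the dLGNs of 3 animals at P0 (postnatal day 0), in 4 groups of 3. Mutants of the *Sox2* line were Sox2flox/flox;Ror-alphaCre and their controls were Sox2flox/flox or Sox2flox/+ with no Cre. Mutants of the *Nr2f1* line were Nr2f1 flox/flox;Ror-alphaCre, and the labels of their controls give the same alleles followed by a statement of no Cre. The study's methods also state no Cre and give these controls as Nr2f1flox/flox or Nr2f1flox/+. Per the paper, the Cre is expressed from the *Rora* locus and deletes in the sensory thalamus in postmitotic cells. Its activity in macrophages was not tested here. Controls of either line could carry a single floxed allele, and the Cre was carried by the mutants alone. The question addressed by each comparison was whether the genes differed between the mutants of a line and its own controls, library by library, since the amount of meninges that stays on a dissected dLGN can vary between pools.

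Border macrophages live in the meninges, around vessels in the perivascular space and in the choroid plexus, and share an embryonic origin in the yolk sac with microglia, the macrophages of the brain parenchyma. They take up proteins, lipids and debris from the cerebrospinal fluid through scavenger receptors. Meningeal and perivascular fibroblasts, which make the collagen-rich sheets in which many border macrophages sit, are their neighbours in the pia. The dLGN lies at the surface of the thalamus beneath the pia.

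The libraries held 39293465 to 50095344 counts each. Levels are given as CPM, TMM-normalized counts relative to the size of the library, in the order control libraries 1, 2 and 3 and mutant libraries 1, 3 and 4 for the *Sox2* line, and control libraries B, D and E and mutant libraries A, B and C for the *Nr2f1* line, as the deposited columns are labelled. *Sox2* lay between 361 and 382 CPM in its controls and between 116 and 152 CPM in its mutants, and *Nr2f1* lay between 311 and 380 CPM in its controls and at 105, 151 and 101 CPM in mutants A, B and C. Markers of thalamic glutamatergic neurons summed to 1508 to 1931 CPM in *Sox2* controls and to 1453 to 1494 CPM in *Sox2* mutants, without overlap. The sum was 1842 to 2012 CPM in *Nr2f1* controls and 1881 to 2122 CPM in *Nr2f1* mutants, with overlap. A gene was called when its FDR, the Benjamini-Hochberg adjusted p-value of the edgeR quasi-likelihood F-test over all genes tested, was below 0.01.

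All 8 genes had a higher mean in the mutants than in the controls in both lines. Of all tested genes, 7813 of 15602 in the *Sox2* line and 8281 of 15600 in the *Nr2f1* line had a log2 fold change above 0. Yet edgeR called 0 of the 7 genes tested in *Sox2* mutants and 0 of the 8 tested in *Nr2f1* mutants. Over all genes 3.9% and 1.22% were called higher. DESeq2 called 0 and 1 of the border macrophage genes, against 8.44% and 3.71% of all genes called higher. *Cbr2* had too few counts to be tested in the *Sox2* line. At an unadjusted p below 0.05 the edgeR test gave 2 of 7 genes in *Sox2* mutants and 5 of 8 in *Nr2f1* mutants, beside 35% and 24.6% of all genes in either direction. At FDR<0.05, *Stab1* passed in the *Sox2* line, where 10.4% of all genes were higher at that level, and *Mrc1* and *Stab1* passed in the *Nr2f1* line, where 3.65% were. Every mutant library lay above every control library for 2 of the 8 genes in the *Sox2* line, *Stab1* and the untested *Cbr2*, with 19% of all tested genes in that position. This held in the *Nr2f1* line for *Mrc1*, *Pf4*, *Ms4a7* and *Stab1*, with 14.4% of all tested genes in that position. In a bulk sample, more cells of a type and more RNA per cell cannot be told apart.

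The order of the libraries was nearly the same from gene to gene. In the *Sox2* line all 8 genes were highest in mutant library 3, and in the *Nr2f1* line 7 of the 8 were highest in mutant library C, with *F13a1* highest in mutant library A. Control library 3 of the *Sox2* line was the highest control for 7 of the 8 genes and lay above mutant library 1 for *Mrc1*, *Lyve1*, *Cd163*, *Pf4*, *F13a1* and *Ms4a7*. Mutant library B of the *Nr2f1* line lay near its controls for every gene and below at least 1 of them for *Lyve1*, *Cd163*, *F13a1* and *Cbr2*. The plot of each gene's level by library shows these recurring positions.

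**Figure D1:**
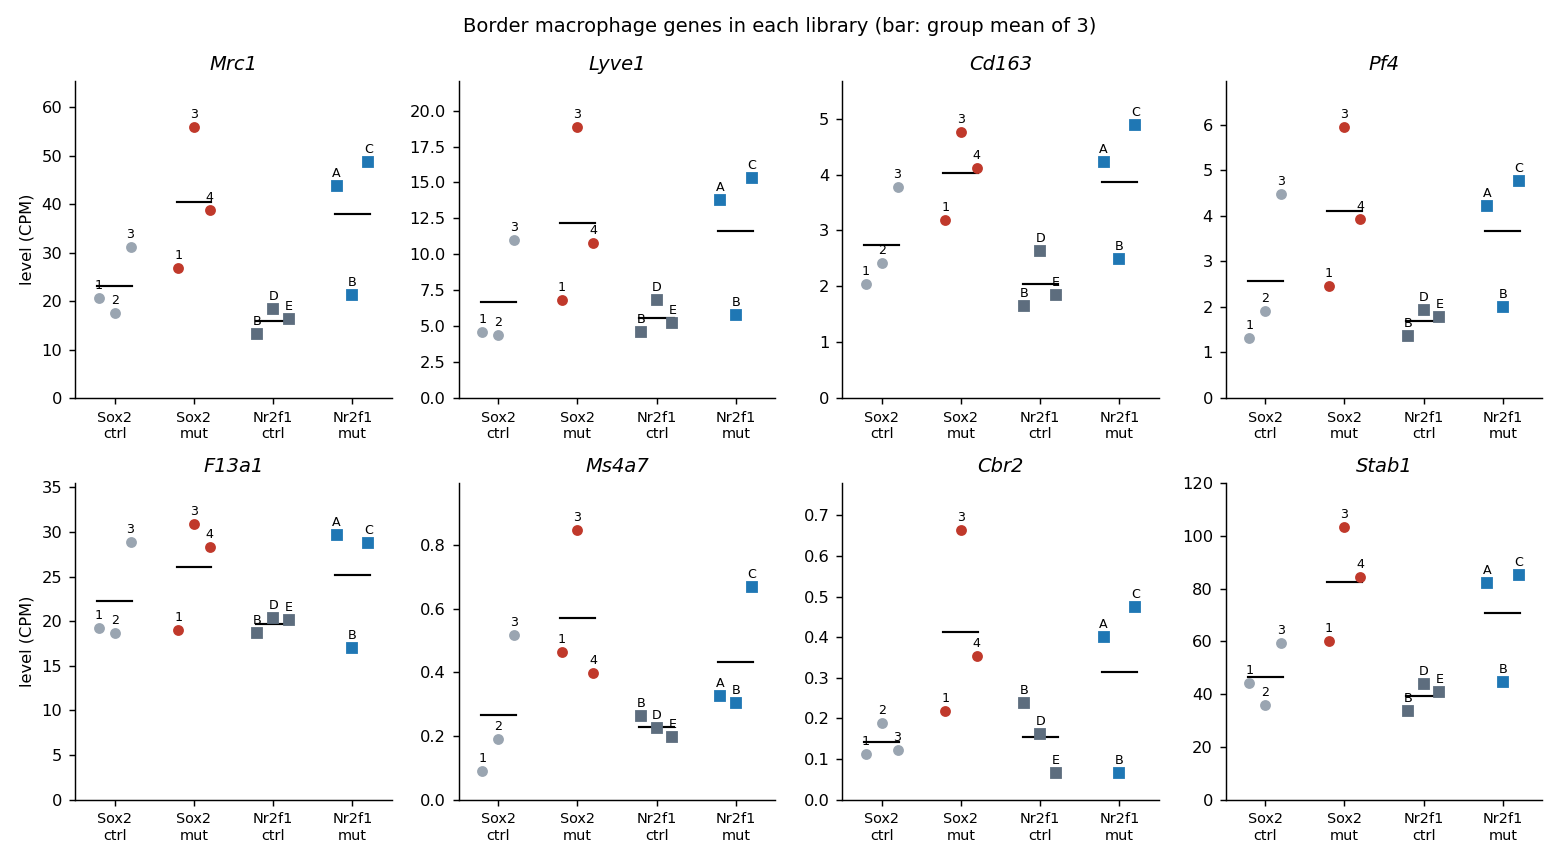
Level of each of the 8 border macrophage genes in CPM (y axis, from 0, scaled for each gene) in the 3 control and 3 mutant libraries of each line (x axis); each point is a library with its number or letter, and each bar is the mean of 3. Mutant library 3 is the highest of the *Sox2* line in all 8 panels, and mutant library B of the *Nr2f1* line sits among or just beside the controls.

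Of the 8 genes, 4 encode scavenger or endocytic receptors. *Mrc1* encodes the mannose receptor CD206, which takes up glycoproteins, and lies on chromosome 2 of GRCm38 from 14229392 to 14332057 on the plus strand. Its levels were 20.6, 17.5 and 31.2 CPM in *Sox2* controls and 26.8, 56.0 and 38.8 CPM in *Sox2* mutants. They were 13.2, 18.3 and 16.2 CPM in *Nr2f1* controls and 43.7, 21.3 and 48.7 CPM in *Nr2f1* mutants. The groups overlapped in the *Sox2* line because control library 3 exceeded mutant library 1, and did not overlap in the *Nr2f1* line, where mutants A and C stood far above the rest and mutant B just above the highest control. The log2 fold change was 0.81 ± 0.27 (SE, n = 3 per group) in the *Sox2* line with an edgeR FDR of 0.0583, and 1.25 ± 0.26 in the *Nr2f1* line with an edgeR FDR of 0.0206.

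*Stab1* encodes stabilin-1, a scavenger receptor for modified lipoproteins and matrix fragments that some endothelial cells also carry. It lies on chromosome 14 from 31139013 to 31168641 on the minus strand, and its exons overlap those of *Nt5dc2*. It was measured at 44.4, 35.7 and 59.4 CPM in *Sox2* controls and at 60.2, 103 and 84.6 CPM in *Sox2* mutants. Controls of the *Nr2f1* line had 33.8, 44.0 and 40.7 CPM and the mutants 82.3, 44.6 and 85.3 CPM. The groups touched without overlapping in both lines, with mutant library 1 barely above control library 3 and mutant library B barely above control library D. Its log2 fold changes were 0.83 ± 0.21 (edgeR FDR 0.0221) and 0.84 ± 0.21 (edgeR FDR 0.043).

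*Lyve1* encodes a hyaluronan receptor of border macrophages and of lymphatic endothelium and lies on chromosome 7 from 110850607 to 110863239 on the minus strand. It had 4.61, 4.36 and 11.0 CPM in *Sox2* controls against 6.82, 18.9 and 10.8 CPM in *Sox2* mutants, so that a control exceeded 2 of the 3 mutants. *Nr2f1* controls had 4.57, 6.82 and 5.24 CPM of *Lyve1* and *Nr2f1* mutants 13.8, 5.79 and 15.3 CPM. Mutant B lay within the controls, and the other two mutants lay above all of them. The log2 fold change was 0.87 ± 0.41 (edgeR FDR 0.162) in the *Sox2* line and 1.07 ± 0.31 (edgeR FDR 0.0719) in the *Nr2f1* line. *Flt4*, a receptor of lymphatic endothelium, lay between 10.2 and 18.8 CPM over the 12 libraries. It is 1 of 6 genes of a lymphatic list. For *Sox2* mutants the log2 fold changes of that list had a median of 0.69, with a range from -0.84 to 1.03. For *Nr2f1* mutants their median was 0.77, with a range from 0.090 to 1.72. The part of lymphatic cells in the *Lyve1* values was not tested.

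*Cd163* encodes the receptor that clears haemoglobin bound to haptoglobin and lies on chromosome 6 from 124304656 to 124330527 on the plus strand. Its levels were 2.04, 2.41 and 3.78 CPM in *Sox2* controls and 3.19, 4.76 and 4.12 CPM in *Sox2* mutants, and 1.64, 2.63 and 1.85 CPM in *Nr2f1* controls and 4.22, 2.49 and 4.88 CPM in *Nr2f1* mutants. In both lines 2 of the 3 mutants lay above every control. The log2 fold changes were 0.56 ± 0.25 (edgeR FDR 0.147) and 0.92 ± 0.27 (edgeR FDR 0.0754).

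The products of *Pf4* and *F13a1* act outside the cell or in clotting. *Pf4* encodes the chemokine platelet factor 4, made by border macrophages as well as by platelets, and is a compact gene on chromosome 5 from 90772435 to 90773383 on the plus strand. It had 1.31, 1.92 and 4.47 CPM in *Sox2* controls and 2.46, 5.95 and 3.92 CPM in *Sox2* mutants. It had 1.36, 1.93 and 1.78 CPM in *Nr2f1* controls and 4.22, 1.99 and 4.75 CPM in *Nr2f1* mutants. The *Sox2* groups overlapped broadly, and the *Nr2f1* groups were separated only by the narrow gap between control D and mutant B. The log2 fold changes were 0.69 ± 0.44 (edgeR FDR 0.296) and 1.10 ± 0.31 (edgeR FDR 0.062). Of the 8 other genes of a platelet list, 5 (*Ppbp*, *Gp9*, *Treml1*, *Gp6* and *Tubb1*) reached at most 0.265 CPM in any of the 12 libraries. The other 3 were measured in every library, *Itga2b* at 3.62 to 4.86 CPM, *Gp1ba* at 2.17 to 3.48 CPM and *Gp1bb* at 38.0 to 66.2 CPM. The part of platelets in the *Pf4* values was not tested.

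*F13a1* encodes the A subunit of coagulation factor XIII, which crosslinks fibrin, and lies on chromosome 13 from 36867178 to 37050244 on the minus strand, with exons that overlap those of *Gm30489*. Its log2 fold change was in each line the smallest of those of the 8 genes that were tested there. Its levels were 19.2, 18.7 and 28.9 CPM in *Sox2* controls and 19.0, 30.9 and 28.3 CPM in *Sox2* mutants. They were 18.7, 20.4 and 20.1 CPM in *Nr2f1* controls and 29.7, 16.9 and 28.7 CPM in *Nr2f1* mutants, mutant B being the lowest library of the line. The log2 fold change was 0.23 ± 0.20 (edgeR FDR 0.459) in the *Sox2* line and 0.35 ± 0.18 (edgeR FDR 0.27) in the *Nr2f1* line.

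*Ms4a7* and *Cbr2* were scarce. *Ms4a7*, which encodes a membrane protein with 4 membrane-spanning segments and lies on chromosome 19 from 11321039 to 11336146 on the minus strand, had 4 to 37 counts per library. Its log2 fold changes were 1.11 ± 0.57 (edgeR FDR 0.2) in the *Sox2* line and 0.93 ± 0.44 (edgeR FDR 0.224) in the *Nr2f1* line. *Cbr2*, a carbonyl reductase gene on chromosome 11 from 120729489 to 120732114 on the minus strand, had 5, 8 and 5 counts in *Sox2* controls and 9, 29 and 16 counts in *Sox2* mutants. The 2 groups of the *Sox2* line did not overlap, and an exact two-sided permutation test gave p = 0.1, the smallest value that 3 against 3 libraries allow. *Cbr2* had 10, 8 and 3 counts in *Nr2f1* controls and 16, 3 and 22 counts in *Nr2f1* mutants, and its log2 fold change was 1.00 ± 0.70 (edgeR FDR 0.42). No test of either gene passed the threshold in either line.

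Set per length of the longest annotated transcript, the level in *Sox2* controls was 5.82 ± 1.50 CPM per kilobase (SD, n = 3) for *Stab1*, 5.63 ± 1.45 for *F13a1*, 4.36 ± 2.85 for *Pf4* and 4.30 ± 1.33 for *Mrc1*. The ranges of mean ± SD of these 4 overlapped. The SD is between libraries, and the genes were measured in the same libraries, so it does not settle their order within a library. *Lyve1* followed at 2.30 ± 1.30 and *Cd163* at 0.617 ± 0.206, with *Ms4a7* at 0.169 ± 0.142 and *Cbr2* at 0.128 ± 0.0373 CPM per kilobase. In *Nr2f1* controls *F13a1* had 4.99 ± 0.23 and *Stab1* 4.94 ± 0.65 CPM per kilobase, with overlapping ranges. *Mrc1* at 2.96 ± 0.48 and *Pf4* at 2.88 ± 0.51 lay below both there. *Ms4a7* and *Cbr2* were again the lowest at 0.144 ± 0.0210 and 0.140 ± 0.0780.

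The promoters of the genes are shown because most of the genes moved together from library to library, with *Mrc1* and *Stab1* the pair most alike and *F13a1* the gene with the smallest differences. RefSeq sequences from 250 bases before to 50 bases after the start were at hand for 7 of the 8 genes (9 promoters, GRCm38.p6). GAGGAA, the core of sites for PU.1, the factor of myeloid cells encoded by *Spi1*, or its reverse complement TTCCTC occurred in 7 of the 9 (77.8%), belonging to 6 genes, and in 28.3% of all 32851 promoters of the same length. TGCTGA, the core of sites for MAF factors, or its reverse complement TCAGCA occurred in 2 of the 9, those of *Cbr2* and *Stab1*, and in 19.5% of all promoters. The 2 motifs can share letters (GA), and no match of one overlapped a match of the other in these promoters. A match is a description and not a bound site. The capitals below mark GAGGAA on either strand, at 3 places in *Mrc1* (chr2:14229164-14229463, plus strand), 1 in *Stab1* (chr14:31168592-31168891, minus strand) and 2 in the first promoter of *F13a1* (chr13:37050195-37050494, minus strand).
Mrc1: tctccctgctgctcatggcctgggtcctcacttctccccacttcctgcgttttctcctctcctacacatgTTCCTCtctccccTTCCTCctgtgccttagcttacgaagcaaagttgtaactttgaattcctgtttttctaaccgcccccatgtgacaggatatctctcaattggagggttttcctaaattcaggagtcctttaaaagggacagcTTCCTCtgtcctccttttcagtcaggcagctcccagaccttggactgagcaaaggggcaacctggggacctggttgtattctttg
Stab1: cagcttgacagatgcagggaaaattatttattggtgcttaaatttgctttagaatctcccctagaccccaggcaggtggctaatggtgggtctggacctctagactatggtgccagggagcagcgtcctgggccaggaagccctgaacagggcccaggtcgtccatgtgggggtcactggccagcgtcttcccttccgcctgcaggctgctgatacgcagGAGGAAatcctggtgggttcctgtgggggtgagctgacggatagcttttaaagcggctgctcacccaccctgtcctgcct
F13a1: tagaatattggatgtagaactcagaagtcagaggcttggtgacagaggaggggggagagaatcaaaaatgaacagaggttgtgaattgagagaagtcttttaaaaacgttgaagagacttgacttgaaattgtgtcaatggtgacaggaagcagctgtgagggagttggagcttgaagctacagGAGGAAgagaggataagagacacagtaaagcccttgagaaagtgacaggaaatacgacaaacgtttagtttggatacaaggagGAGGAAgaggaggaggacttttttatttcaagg

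The summed level of the 8 genes followed that of genes of the fibroblasts of the meninges and vessels. The 8 genes summed to 92.5, 80.9 and 139 CPM in *Sox2* controls and 119, 221 and 171 CPM in *Sox2* mutants. The summed level of 18 fibroblast genes, among them the collagen genes *Col1a1* and *Col1a2* and the proteoglycan genes *Dcn* and *Lum*, was 1661, 1557 and 2925 CPM in the same controls and 2326, 4853 and 2939 CPM in the same mutants. The 6 libraries of the *Sox2* line stood in one and the same order by both sums. In the *Nr2f1* line the 8 genes summed to 73.7, 94.5 and 86.2 CPM in controls and 179, 93.5 and 189 CPM in mutants, and the fibroblast genes to 1152, 1665 and 1729 CPM in controls and 3100, 1640 and 3721 CPM in mutants. Both sums were high in mutants A and C and at the level of the controls in mutant B. Of the 18 fibroblast genes, 15 were highest in mutant library 3 of the *Sox2* line and 16 in mutant library C of the *Nr2f1* line, the libraries in which the border macrophage genes were highest.

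Divided by the fibroblast sum, the border macrophage sum varied little. It was 55.7, 52.0 and 47.6 CPM per 1000 fibroblast CPM in *Sox2* controls and 51.2, 45.6 and 58.2 in *Sox2* mutants, and 64.0, 56.8 and 49.8 in *Nr2f1* controls and 57.6, 57.0 and 50.7 in *Nr2f1* mutants. Mutants and controls overlapped in both lines, and the highest of the 12 libraries was 1.40 times the lowest, against 3.00 times for the undivided sum. Gene by gene, the ratio of the highest to the lowest of the 12 libraries fell from 4.23 to 1.50 for *Mrc1*, from 3.06 to 1.44 for *Stab1*, from 4.34 to 1.60 for *Lyve1*, from 2.97 to 1.61 for *Cd163* and from 4.54 to 1.93 for *Pf4*. *F13a1* went the other way, from 1.82 to 2.55. Per fibroblast CPM, *F13a1* was lower in every mutant than in every control library of the *Sox2* and of the *Nr2f1* line, as were 10% of all tested genes of the former line and 23.7% of the latter. *Mrc1* and *Pf4* were higher per fibroblast CPM in every mutant of the *Nr2f1* line, a position held by 0.224% of all tested genes there. In the *Sox2* line 0 of the 8 genes were in that position, where 0.295% of all genes were. The mean fibroblast sum was higher in mutants, 3373 against 2048 CPM in the *Sox2* line and 2820 against 1515 CPM in the *Nr2f1* line. A gene with an unchanged CPM therefore falls per fibroblast CPM. These shares over all genes are thus no yardstick for genes that vary with the fibroblasts. For *Mrc1* the values per 1000 fibroblast CPM in the *Nr2f1* line were 10.6 ± 1.1 in controls and 13.4 ± 0.6 in mutants (SD, n = 3), and for *Pf4* 1.12 ± 0.08 and 1.28 ± 0.07.

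**Figure D2:**
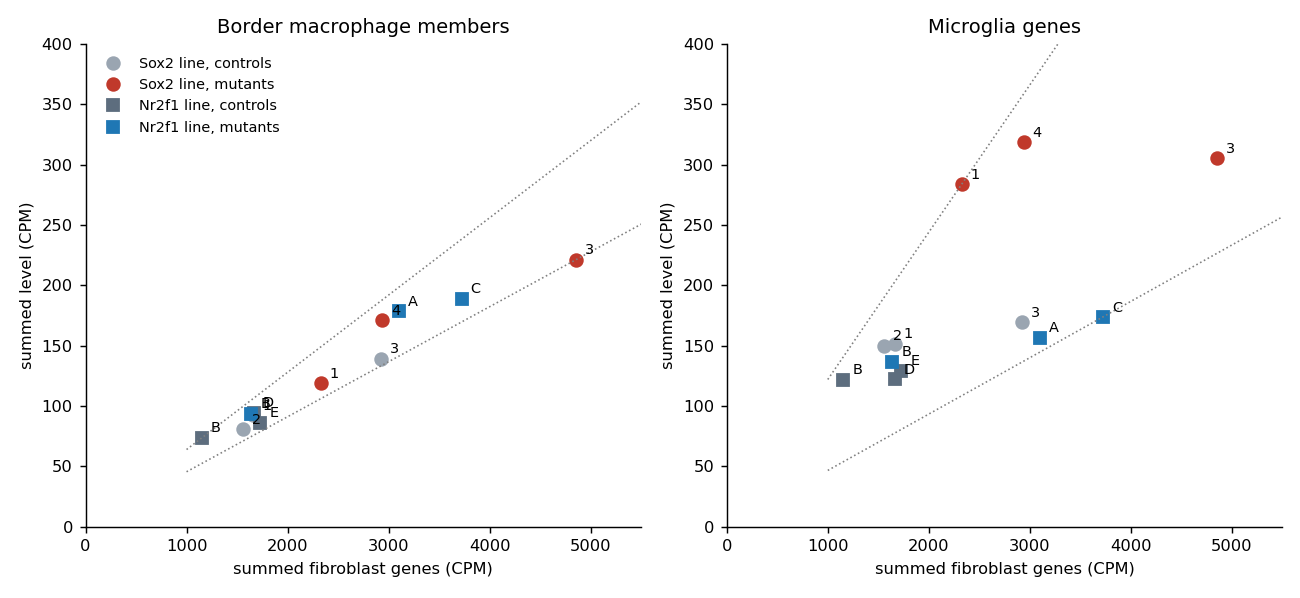
Summed level of the 8 border macrophage genes (left) and of 12 microglia genes (right) in CPM against the summed level of 18 fibroblast genes in CPM (x axis) in the 12 libraries, labelled by number or letter; the dotted lines mark the lowest and the highest ratio of the sums. The border macrophage sums stay between 45.6 and 64.0 per 1000 fibroblast CPM, whereas the microglia sums range from 46.7 to 122.

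With the mean log2 level of the 18 fibroblast genes added to the fit as a covariate, the median difference of the border macrophage genes moved towards 0 in both lines, while single genes moved differently. In the *Sox2* line the log2 fold change was -0.018 for *Mrc1*, 0.20 for *Stab1*, -0.35 for *Lyve1*, 0.022 for *Cd163*, -0.41 for *Pf4*, -0.33 for *F13a1* and 0.074 for *Ms4a7*, with a median of -0.018 against 0.81 without the covariate. *F13a1*, at 0.23 without the covariate, was then larger in size and of opposite sign. In the *Nr2f1* line it was 0.36 for *Mrc1*, 0.13 for *Stab1*, 0.011 for *Lyve1*, 0.17 for *Cd163*, 0.16 for *Pf4*, -0.19 for *F13a1*, 0.45 for *Ms4a7* and -0.27 for *Cbr2*, with a median of 0.14 against 0.97. None of the 7 or 8 genes was called by edgeR in these fits, in which 3.99% and 0.519% of all genes were called in either direction. At an unadjusted p below 0.05, edgeR gave only *F13a1* in the *Sox2* line (FDR 0.214) and *Mrc1* in the *Nr2f1* line (FDR 0.295). The fibroblast level was itself higher on average in the mutants of both lines, so that the covariate and the genotype share part of their variation. The plot of log2 fold changes shows both fits for each gene.

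**Figure D3:**
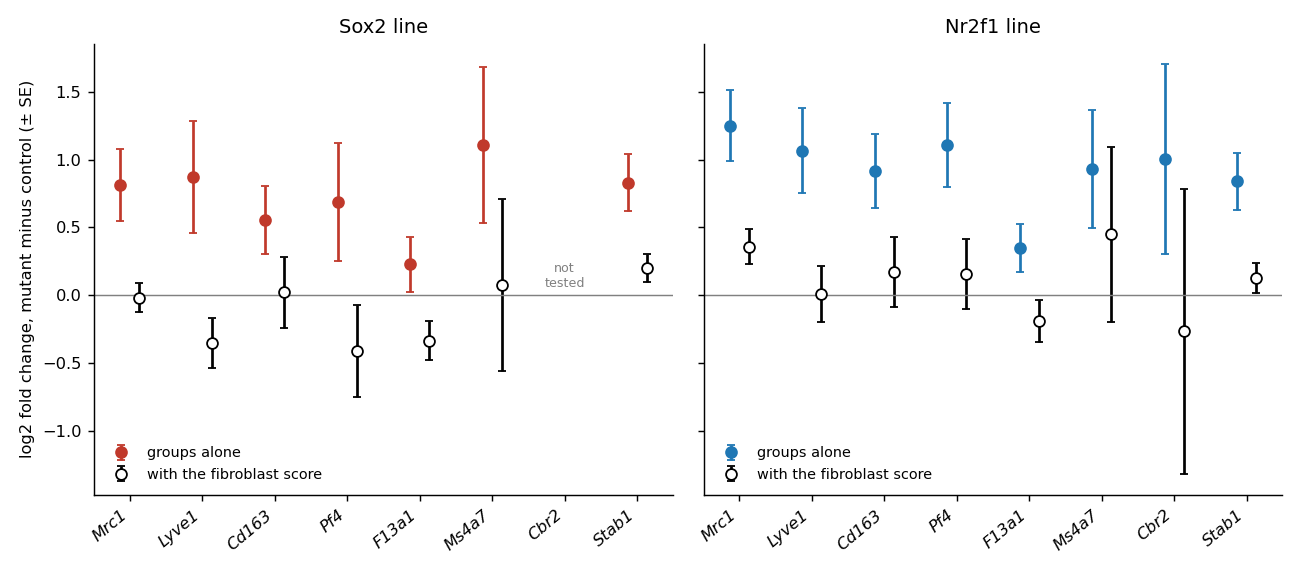
Log2 fold change of each gene, mutant minus control, with its SE (y axis), in the *Sox2* line (left) and the *Nr2f1* line (right), from the edgeR fit of the groups alone (filled) and from the fit with the mean log2 level of 18 fibroblast genes as a covariate (open). All filled points lie above 0, and the open points lie around 0, between -0.41 and 0.20 on the left and between -0.27 and 0.45 on the right.

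Single libraries decided the calls. Without mutant library B of the *Nr2f1* line, 6 of the 8 genes were called by edgeR, against 3.28% of all genes called higher in that fit. Their log2 fold changes were then 1.53 for *Mrc1*, 1.40 for *Pf4*, 1.39 for *Lyve1*, 1.15 for *Cd163*, 1.08 for *Stab1* and 0.57 for *F13a1*. Mutant library B also had the highest remaining *Nr2f1* level of the 3 mutants and a fibroblast sum within that of the controls, and the part of either in these values was not tested. In the *Sox2* line, *Stab1* was called at 1.06 without control library 3 and at 1.02 without mutant library 1, where 6.86% and 2.9% of all genes were called higher. Column numbers 1 and 3 occur among both controls and mutants of the *Sox2* line, and with that number as a block *Mrc1* (0.62), *Lyve1* (0.68) and *Stab1* (0.62) were called, against 5.9% of all genes called higher. Neither the labels nor the methods tie these numbers to a shared litter or day.

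The difference between the 2 mutants was tested directly as the interaction of line and genotype over the 12 libraries. It was called for 0 of the 8 genes, against 1.44% of all genes, and the edgeR FDR of the 8 lay between 0.719 and 0.998, with 0 at an unadjusted p below 0.05 (16.2% of all genes) and 0 called by DESeq2 (3.61% of all genes). *Stab1* had nearly equal changes in both lines, with a difference of -0.0028 ± 0.35 on the log2 scale, *Sox2* line minus *Nr2f1* line. For *Mrc1* it was -0.43 ± 0.44, for *Lyve1* -0.19 ± 0.61, for *Cd163* -0.35 ± 0.41 and for *Pf4* -0.41 ± 0.62. These errors leave room for differences of either sign, and the 2 lines were not shown to act alike.

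Other macrophage genes were examined beside the 8, without a test between lists. In a wider list of 30 border macrophage genes, 24 were tested in *Sox2* mutants, all 24 had a higher mean and 2 were called, near the 3.9% of all genes, with a median log2 fold change of 0.76 beside 0.81 for the 8 genes. The 2 were *Maf*, a transcription factor of mature macrophages (0.89 ± 0.14, edgeR FDR 0.00273), and *Igf1*, a growth factor (0.91 ± 0.13, edgeR FDR 0.00132), and neither is expressed by border macrophages alone. Of 18 genes that border macrophages and microglia share, 14 were called higher in *Sox2* mutants (median 1.09), among them *Trem2* (1.58, edgeR FDR 0.000211), *Csf1r*, the receptor on which both cells depend (1.08, edgeR FDR 0.000124), and the complement gene *C1qa* (1.26, edgeR FDR 0.000138). Of 12 microglia genes, 9 were called higher (median 0.98), among them *P2ry12*, the receptor by which microglia sense purines (1.45, edgeR FDR 9.08e-05), and *Cx3cr1* (1.12, edgeR FDR 4.83e-05). The median over all 15602 genes tested was 0.00050. With the fibroblast covariate 9 of the 18 shared genes and 6 of the 12 microglia genes were still called, with medians of 0.90 and 0.94, while the wider border macrophage list had 0 called and a median of 0.097.

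The summed level of the microglia genes was 152, 150.0 and 169 CPM in *Sox2* controls and 284, 305 and 318 CPM in *Sox2* mutants, with every mutant far above every control and little spread within a group. Per 1000 fibroblast CPM it ranged from 57.9 to 122 in the *Sox2* line. The border macrophage sum was 42.0 to 82.3 CPM per 100 microglia CPM in the same 6 libraries, with its lowest value in mutant library 1 and its highest in control library 3.

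In *Nr2f1* mutants the lists stood in another order. The median log2 fold change was 0.97 for the 8 border macrophage genes, 0.61 for the 23 tested genes of the wider list, 0.39 for the 18 shared genes and 0.28 for the 12 microglia genes, beside 0.014 for all 15600 genes tested. In these 4 lists 0 genes were called by edgeR, with 5 of 8, 9 of 23, 10 of 18 and 7 of 12 at an unadjusted p below 0.05 (24.6% of all genes) and 1, 1, 3 and 2 called higher by DESeq2 (3.71% of all genes). Without mutant library B, edgeR called 6, 5, 3 and 4 genes of these lists higher (3.28% of all genes). The microglia sum was 122, 122 and 129 CPM in controls and 157, 137 and 174 CPM in mutants, a narrower range than that of the border macrophage genes, which were 60.5 to 114 CPM per 100 microglia CPM with the highest values in mutants A and C. The interaction of line and genotype was called for *P2ry12* (1.48) and *Trem2* (1.32), both more changed in *Sox2* mutants, and not for any of the 8 border macrophage genes.

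**Figure D4:**
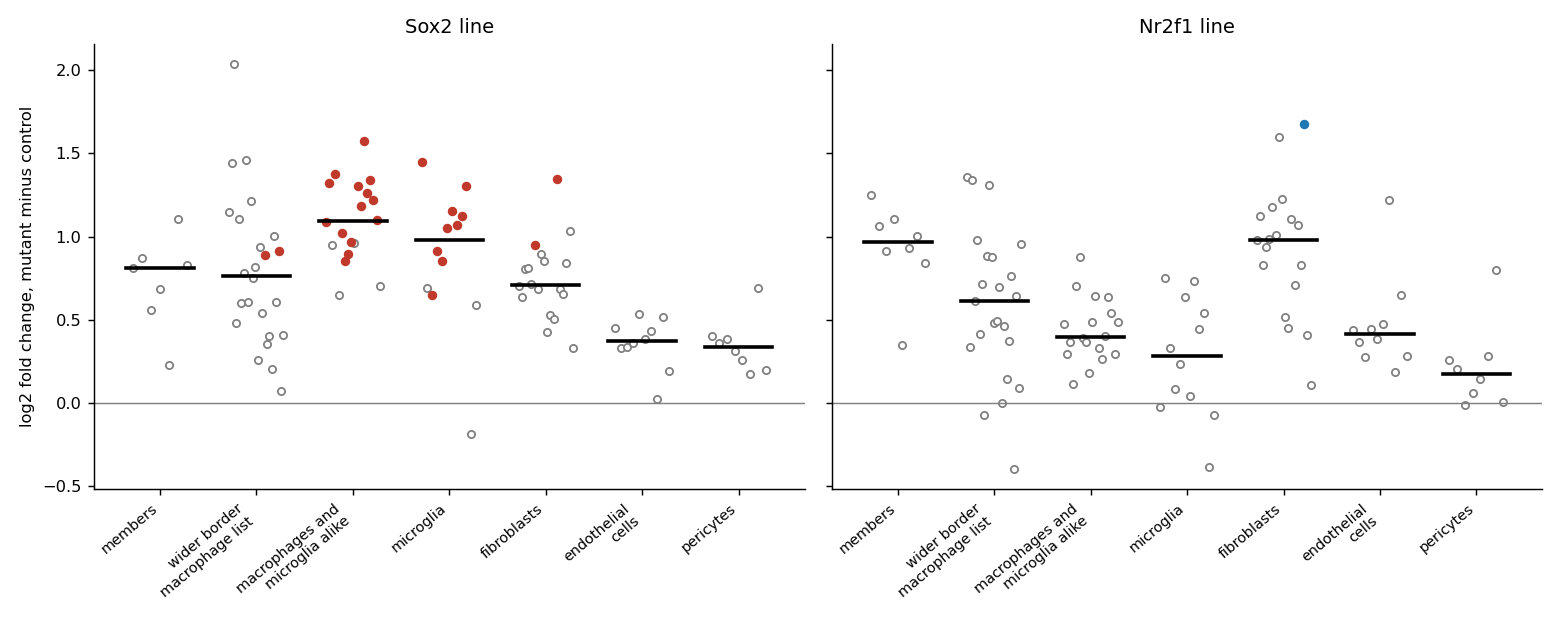
Log2 fold change, mutant minus control (y axis), of every tested gene of 7 marker lists (x axis) in the *Sox2* line (left) and the *Nr2f1* line (right); filled points are genes called at an edgeR FDR below 0.01, open points are not called and each bar is the median of a list. The medians of the 8 border macrophage genes and of the fibroblasts are 0.81 and 0.71 on the left and 0.97 and 0.98 on the right, while that of microglia is 0.98 on the left and 0.28 on the right.

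Markers of other cells of the surface and vessels were examined beside these values. All 18 fibroblast genes were higher in the mutants of both lines, beside 7813 of 15602 and 8281 of 15600 genes tested. Of the 18, edgeR called 2 in the *Sox2* line, *Crabp2* (1.35) and *Ptgds* (0.95), and 1 in the *Nr2f1* line, *Fmod* (1.68). Over all genes 3.9% and 1.22% were called higher. Of 10 endothelial genes, among them *Cldn5* and *Pecam1*, edgeR called 0 in either line, with 5 in *Sox2* mutants and 9 in *Nr2f1* mutants at an unadjusted p below 0.05 (35% and 24.6% of all genes). They had medians of 0.37 and 0.41 and sums of 334 to 512 CPM in *Sox2* controls, 451 to 572 CPM in *Sox2* mutants, 314 to 379 CPM in *Nr2f1* controls and 375 to 517 CPM in *Nr2f1* mutants. Of 8 pericyte genes edgeR called 0, with 6 and 1 at an unadjusted p below 0.05, beside the same 35% and 24.6% of all genes, and medians of 0.34 and 0.18. The choroid plexus gene *Ttr* ranged from 3.38 to 133 CPM over the 6 libraries of the *Sox2* line, with its lowest value in control library 3, a library in which the border macrophage genes were high. Neutrophil and monocyte genes summed to 36.6 CPM in control library 3 and 18.2 CPM in mutant library 4 of the *Sox2* line and to at most 3.55 CPM in any other library. Markers of antigen presentation, the MHC class II list with *Cd74* and *H2-Aa*, summed to 7.37 to 10.2 CPM with 0 genes called by edgeR and 0 at an unadjusted p below 0.05. The part of any of these cells in the border macrophage values was not tested beyond the fits given above.

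Across the 12 libraries, deviations of log2 levels from the mean of the own group were compared between genes, as a description over libraries that share pools and depth. The 8 border macrophage genes had a median Pearson r of 0.88 with each other, 0.84 with the fibroblast genes, 0.77 with endothelial genes, 0.67 with the wider border macrophage list, 0.67 with the genes shared with microglia, 0.55 with pericyte genes, 0.26 with microglia genes, -0.24 with choroid plexus genes and -0.41 with markers of thalamic neurons. Single genes differed in this order. The median r was higher with endothelial than with fibroblast genes for *Cd163* (0.88 and 0.86), *Pf4* (0.88 and 0.83) and *Ms4a7* (0.76 and 0.53). For the rest of the 8 genes it was higher with fibroblast genes. *Mrc1* was most like *Slc41a1* (r = 0.997), *Col4a6*, a basement membrane collagen gene (0.994), and *Trim21* (0.993). *Stab1* was most like *Trim21* (0.993), *Mrc1* (0.992) and the proteoglycan gene *Bgn* (0.990), and *Lyve1* most like the endothelial cadherin gene *Cdh5* (0.986), *Tpcn1* (0.982) and the collagen gene *Col5a2* (0.981). *Cd163* was most like *Srpx* (0.987), *Marveld1* (0.986) and *Mfap2* (0.981), *Pf4* most like *Pros1* (0.981), *Oaf* (0.979) and *Il34* (0.978), and *F13a1* most like *Il10rb* (0.985), *Tfpi* (0.984) and *Il34* (0.977). The scarce genes gave *Atox1* (0.992), *Limd1* (0.951) and *Pygl* (0.948) for *Ms4a7*, and *4933402D24Rik* (0.968), *Car3* (0.945) and *Dock5* (0.938) for *Cbr2*, values that rest on few counts.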

How the data were processed

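RNA-seq was measured in 12 libraries of dLGN at P0, in 4 groups of 3 pools. Per the study's methods, the authors aligned paired reads with STAR (version not given in the sources used here) to the RefSeq mouse transcriptome and estimated expression with RSEM. The submitters' processing notes name build mm10, which is GRCm38. The authors deposited RSEM's expected counts, not normalized, as 1 table per line of 24480 genes. Of these values 7.77% were not whole, and all were rounded. Whether counting used strand is not given in the sources used here, so reads of overlapping genes cannot be told apart.

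Libraries were assigned to groups by column labels. Total counts were 39293465 to 50095344. Nothing states that the pools of a group come from separate litters, so p-values measure the spread between pools. With 3 against 3, an exact permutation test gives no two-sided p below 0.1.

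Each line was fitted separately in edgeR 4.0.16 (R 4.3.3) with filterByExpr (minimum count 10, minimum total 15), TMM, glmQLFit and glmQLFTest, and called at the paper's FDR<0.01. Differences between lines were the interaction over 12 libraries. The likeness of genes used log2 CPM with a prior count of 2. The tests were checked on simulated counts. Gene positions and transcript lengths are from GENCODE M21 (GRCm38). The alternatives were DESeq2 1.42.0, no filter, a minimum of 10 counts in each library, upper quartile scaling, the likelihood ratio test, one fit of 12 libraries, a fibroblast covariate, a replicate block, FDR<0.05 and leaving out each library.

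The 8 genes, the marker lists and the tests were chosen with earlier results of these data known. The genes named were the 8; up to 5 called genes with the smallest p in a line from each macrophage list; the first 2 genes and up to 3 called genes in a line of each other list; the 3 genes most like each of the 8; and *Sox2* and *Nr2f1*. Lists without a count in the results were lymphatic endothelium (of 6 genes, 2 higher and 1 lower in *Sox2* mutants, 1 higher in *Nr2f1* mutants), choroid plexus (of 8, 2 higher in *Sox2* mutants, 0 called in *Nr2f1* mutants), thalamic neurons (of 8, 2 higher and 4 lower in *Sox2* mutants, 2 higher and 1 lower in *Nr2f1* mutants), and red blood cells, mast cells, platelets, monocytes and neutrophils (0 called by edgeR in either line). *Prox1*, called lower in *Sox2* mutants, is on both the lymphatic and the thalamic neuron list. Over all genes edgeR called 608 higher and 653 lower of 15602 in the *Sox2* line. In the *Nr2f1* line it called 190 higher and 206 lower of 15600.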

Additional observations from a re-analysis of the deposited data

How the results depend on the processing

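*Ms4a7* had 4 to 37 counts per library and *Cbr2* 3 to 29, and each group held 3 pools. Of the 8 genes, the number called in the *Sox2* line rose from 0 to 1 with the likelihood ratio test and with FDR<0.05, and to 3 with the replicate block. The calls over all genes rose there from 1261 to 2351, 3095 and 1611 in the same order. In the *Nr2f1* line the number of the 8 genes rose to 1 with no filter, 3 with the likelihood ratio test, 1 with DESeq2 and 2 at FDR<0.05. The calls over all genes rose there from 396 to 581, 1089, 1112 and 1154 in the same order. When each library was left out, 0 to 1 of the 8 genes were called in the *Sox2* line and 0 to 6 in the *Nr2f1* line. The cause was not tested. With the fibroblast covariate the direction turned in the *Sox2* line for *Mrc1* (-0.018), *Lyve1* (-0.35), *Pf4* (-0.41) and *F13a1* (-0.33), and in the *Nr2f1* line for *F13a1* (-0.19) and *Cbr2* (-0.27).

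Over all genes, 1261 were called in the *Sox2* line, 2351 with the likelihood ratio test, 2468 with DESeq2, 2075 in one fit, 623 with the covariate, 3095 at FDR<0.05 and 494 to 2161 when each library was left out. In the *Nr2f1* line 396 were called, 1089 with the likelihood ratio test, 1112 with DESeq2, 81 with the covariate, 1154 at FDR<0.05 and 133 to 868 when each library was left out. The interaction was called for 231 genes, 496 with the likelihood ratio test, 544 with DESeq2, 538 at FDR<0.05 and 133 to 308 when each library was left out, with 133 and 148 without control 2 and mutant 4 of the *Sox2* line and 139 and 135 without control D and mutant A of the *Nr2f1* line.

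Interaction values near 0 changed sign without being called. For *Stab1* they were 0.0027 with at least 10 counts in every library, 0.026 with upper quartile normalization and 0.0064 with DESeq2. When single libraries were left out, *Stab1* reached 0.22, 0.18, 0.11, 0.13 and 0.16, *Lyve1* 0.39, 0.094 and 0.074, *Pf4* 0.26, *F13a1* 0.13, 0.069, 0.030 and 0.0057, and *Ms4a7* -0.24, -0.21 and -0.0085.

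The replicate block called 1611 genes in the *Sox2* line. The labels do not say that a number marks a shared animal, litter or day, and only 2 numbers were shared. Deviations of control and mutant library 1 correlated at 0.227 and those of library 3 at 0.223, but mutant library 1 correlated better with control library 2 (0.268). No paired analysis was possible in the *Nr2f1* line because its groups shared only 1 letter.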
